A study of Mus musculus with 4 samples.

Results

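The macrophage, dendritic cell and myeloid genes described here are 43 genes, found by their gene name on an Agilent mouse expression array that carried 37074 gene names. All 43 were on the array, with 74 probes. A probe well above background on 1 or more arrays was found for 39 of them, and on all 4 arrays for 37. Kidneys came from mice of the outbred ICR strain that had been injected with saline or with vancomycin, a glycopeptide antibiotic, and were removed 1 day later. Injections were given at zeitgeber time 2 (ZT2), early in the light phase, or at ZT14, early in the dark phase. Each of the 4 combinations of agent and injection time had 1 array. The labels give no dose, age or sex, and do not say whether an array held RNA of 1 mouse or of several.

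With 1 array per group, a difference at a single injection time has no replicate check and no test. The ZT2 arrays shared a slide and a scan, as did the ZT14 arrays, and saline and vancomycin always lay at the same slide positions. Injection time and slide, and treatment and slide position, therefore cannot be told apart. Between 60.6% and 64.7% of spots were well above background and 0 were saturated. All 10 markers of kidney epithelium, among them Umod, Lrp2 and Aqp2, were well above background on all 4 arrays.

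Resident macrophages and dendritic cells form a network between the tubules and capillaries of the kidney, where they take up debris, sample filtered antigen and recruit other leukocytes. They depend on the receptor kinase CSF1R and the transcription factor PU.1, which is encoded by Spi1. Their products include the opsonin C1q, the activating Fc receptors with their shared signalling chain, scavenger receptors and lysosomal enzymes.

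The probes decide what can be read for these genes, and 2 of them stand out by their sequence. Itgam encodes the integrin chain CD11b and Siglech a lectin of plasmacytoid dendritic cells. The following lines show 30 bases of the 60-base probe that was brightest for each, and of the dimmer probe of the same gene, with tandem repeats in capitals.
Itgam brightest: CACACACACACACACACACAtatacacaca
Itgam dimmer: tgttaaccagacaggtgccctctaccagtg
Siglech brightest: tctgtctcAAAGAAAGAAAGAAAGAAAGAA
Siglech dimmer: attggattaatccagtgtgtgaacagtctt
The Itgam probe starts with a CA repeat of 20 bases and the Siglech probe ends with an AAAG repeat of 22 bases. No other member was read by a probe with a tandem repeat of 16 or more bases (units of 1 to 4 bases). Signals below are scaled so that each array has the same 75th percentile, 587.0 intensity units. For Siglech the repeat probe gave 17072 and 14538 in saline and vancomycin at ZT2 and 95087 and 101988 at ZT14, and the dimmer probe gave 14.4, 15.2, 21.9 and 14.01. For Itgam the repeat probe gave 9122, 9448, 13987 and 15544, against 12.6, 18.1, 13.5 and 15.2 for the dimmer probe. Both dimmer probes were well above background on 2 of the 4 arrays. On the whole array, the 252 probes with such repeats, 0.672% of those kept, had a median scaled signal of 5067 on the saline ZT2 array, against 166 for all kept probes. The repeat types were not alike: the median was 7161 for 42 probes with a CA repeat, the type of the Itgam probe, and 100.4 for 5 probes with a GAAA repeat on the probe strand, the type of the Siglech probe. The Itgam and Siglech probes are themselves in these sets. The Siglech probe was therefore far brighter than the median of its own repeat type. Values of Itgam and Siglech are given below as those of their probes.

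Most of the myeloid genes had lower signals with vancomycin at both injection times. Of the 37 genes above background on all 4 arrays, 28 were lower at both times, 4 were higher at both and 5 changed sign. Of all genes measured that way, 27.3% were lower at both times. Over the 39 genes with any signal above background the count was 29, or 74.4%, against 28.1% of 24638 genes. Taken singly, 32 of the 39 were lower at ZT2 and 32 at ZT14, against 50% and 49.4% of all genes. The log2 differences of the 39 had medians of -0.47 (ZT2) and -0.48 (ZT14), and those of all genes 0.00013 and 0.005. Both vancomycin arrays lay below both saline arrays for 25 of the 39, and for 12.9% of all genes. In whole kidney, fewer myeloid cells and less of these RNAs per cell cannot be told apart.

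**Figure D1:**
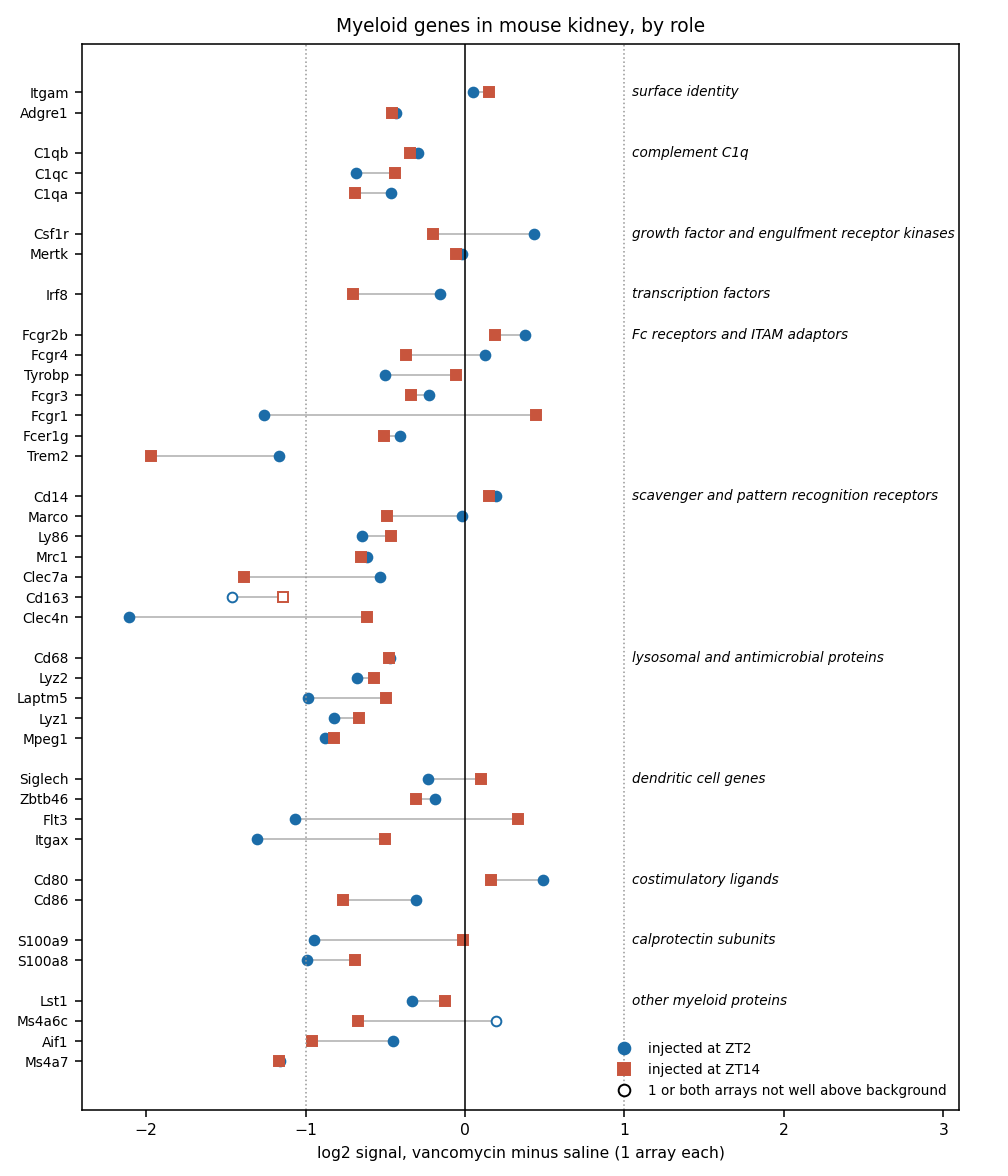
Log2 signal with vancomycin minus that with saline for the 39 measured genes, by role, at ZT2 (circles) and ZT14 (squares), 1 array each; open symbols have 1 or both arrays not well above background and dotted lines mark 2-fold. Most symbols lie between 0 and -1, and 28 of the 37 genes above background on all arrays lie left of 0 at both times.

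**Figure D2:**
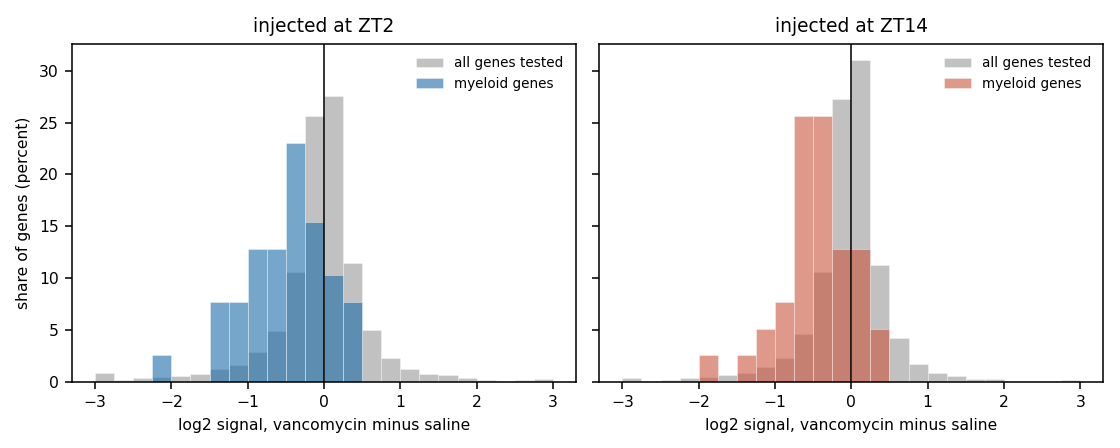
Share of genes (percent, vertical) by log2 difference between vancomycin and saline (horizontal, bins of 0.25, with values beyond 3 placed in the outermost bins), for all 24638 genes (grey) and the 39 myeloid genes (coloured). The myeloid genes peak below 0 at both times, with medians of -0.47 and -0.48.

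The differences were small for single genes. At ZT2, 7 genes were lower by 2-fold or more (5.98% of all genes), and at ZT14 4 were (4.49% of all genes), while 0 were higher by 2-fold at either time (3.7% and 2.31% of all genes). Among the 37 genes above background on all 4 arrays these counts were 6 (3% of such genes) and 3 (2.22%). Trem2, Ms4a7 and, by measured signals near background, Cd163 were 2-fold lower at both times (1.68% of all genes). Treatment and injection time were fitted together over all genes with limma. Its p-value sets the mean vancomycin difference against how far the differences at the 2 times depart from each other, moderated over all genes. It does not measure the spread between animals. No gene of the 24638 passed an adjusted p of 0.05 (0%), and adjusted p-values of the myeloid genes ranged from 0.52 to 0.96. At an unadjusted p under 0.05, 18 of the 39 were lower (5.35% of all genes) and 0 higher (3.21% of all genes). The changes named below are therefore differences between arrays that did not pass the test.

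The genes of complement C1q, whose A, B and C chains assemble into the molecule that tags immune complexes and dying cells, all had lower signals with vancomycin within each injection time. C1qa gave scaled signals of 259 in saline and 188 in vancomycin at ZT2, and 303 and 188 at ZT14. C1qc gave 881 and 549, then 734 and 542. C1qb gave 166 and 135, then 175 and 138. In each of the 3 genes both vancomycin signals lay below both saline signals, which held for 12.9% of all genes. Over both times the log2 change was -0.58 ± 0.15 for C1qa, -0.56 ± 0.15 for C1qc and -0.32 ± 0.14 for C1qb (moderated SE from limma, n = 2 arrays per treatment). Their probes lay close together on chromosome 4 in mm9, the build of the array files, from 136436578 for C1qb to 136452468 for C1qa.

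Adgre1, which encodes the macrophage surface protein F4/80, gave 185 and 137 at ZT2 and 162 and 118 at ZT14. The vancomycin signals lay below both saline signals, with log2 differences of -0.43 and -0.46. The Itgam probe with the CA repeat differed by 0.05 and 0.15, and its dimmer probe, above background on 2 arrays, by 0.53 and 0.17. The marker pair F4/80 and CD11b thus had only 1 gene, Adgre1, with a probe free of repeats above background on all 4 arrays.

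Csf1r, the receptor through which macrophages receive their survival signal, was not lower at both times. Its brightest probe changed sign, with log2 differences of 0.43 at ZT2 and -0.20 at ZT14. That probe gave 5699 in saline and 7697 in vancomycin at ZT2, and 8229 and 7172 at ZT14, so the groups overlapped. A second, dimmer Csf1r probe was higher with vancomycin at both times, by 0.20 and 0.21. Mertk, a receptor kinase for engulfing apoptotic cells that other kidney cells can also express, differed by -0.02 and -0.06. Of the CSF1R ligands, Il34 differed by -0.57 and -0.78 in log2 and Csf1 by 0.10 and 0.17. Flt3l, the ligand of FLT3, differed by -0.17 and 0.46.

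Of the transcription factors, Irf8, which directs monocyte and dendritic cell development, gave 500 and 449 at ZT2 and 839 and 516 at ZT14. It was lower with vancomycin within each time (-0.16 and -0.70), with overlapping groups. The Spi1 probe was not well above background on any array, so no value is given for the gene of PU.1. PU.1 binds an ETS core often written GAGGAA. Among 37 RefSeq promoters of 33 of the 43 genes (GRCm38.p6, windows of 300 bases around the start), 18 held GAGGAA on either strand, or 48.6%, against 28.3% of 32851 promoters of the same length. With the longer GAGGAAGT the share was 8.11%, or 3 of 37, against 3.2%. These counts describe letters, not binding. The lines below show 60 bases upstream of the start for 4 genes that were lower with vancomycin at both times, written along the gene's strand with the core in capitals (TTCCTC where it lies on the other strand).
C1qb, minus strand, chr4:136886201-136886260: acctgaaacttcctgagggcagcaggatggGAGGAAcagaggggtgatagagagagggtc
C1qc, minus strand, chr4:136893075-136893134: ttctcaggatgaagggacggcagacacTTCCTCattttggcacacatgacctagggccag
Laptm5, plus strand, chr4:130913251-130913310: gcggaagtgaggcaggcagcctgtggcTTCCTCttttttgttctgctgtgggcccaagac
Trem2, plus strand, chr17:48346334-48346393: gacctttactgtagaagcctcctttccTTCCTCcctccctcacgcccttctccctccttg
Itgam, whose probe was not lower, held 3 such cores.

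Fc receptors bind the constant part of IgG, and the activating ones signal through the common gamma chain encoded by Fcer1g. Fcer1g gave 858 and 647 at ZT2 and 918 and 646 at ZT14, both vancomycin signals lying below both saline signals. Fcgr3, an activating receptor, differed by -0.22 and -0.34 in log2, without overlap, and its other probe by 0.12 and -0.16. Fcgr2b, the inhibitory receptor, was higher by 0.38 and 0.19, also without overlap, although its other probe was higher at ZT2 (0.24) and lower at ZT14 (-0.30). The dim genes Fcgr1 and Fcgr4 changed sign between times. Fcgr1, the high-affinity receptor, gave 80.3 and 33.5 at ZT2 and 51.1 and 69.7 at ZT14, with overlapping groups. Tyrobp, the adaptor DAP12 of many myeloid receptors, differed by -0.50 at ZT2 and -0.06 at ZT14.

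Trem2, a lipid-sensing receptor that signals through DAP12, had the largest decline over both times of the genes above background on all arrays. It gave 229 in saline and 102 in vancomycin at ZT2, and 112 and 28.6 at ZT14. The log2 differences were -1.17 and -1.97, and the change over both times was -1.57 ± 0.27 (SE, n = 2 arrays per treatment; limma adjusted p = 0.52). Saline at ZT14 minus saline at ZT2 was -1.03 in log2, and the vancomycin signal at ZT2 stood close to the saline signal at ZT14. Its probe lay on chromosome 17 at 48491537 to 48491596 (mm9).

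Scavenger and pattern recognition receptors were lower at both times in 6 of the 7 measured genes of 9 (28.1% of all genes). Among the 6 above background on all 4 arrays, which leave out Cd163, 5 were lower at both times (27.3% of such genes). Mrc1, the mannose receptor CD206, gave 166 and 109 at ZT2 and 133 and 84.5 at ZT14, without overlap. Clec7a, the beta-glucan receptor Dectin-1, gave 70.3 and 48.6, then 128 and 48.9, and Clec4n, the lectin Dectin-2, gave 84.1 and 19.5, then 77.4 and 50.6. The size of the Dectin changes was thus not the same at the 2 times, with -0.53 and -1.39 for Clec7a and -2.11 and -0.61 for Clec4n. Cd163, the haemoglobin-haptoglobin scavenger, was well above background in saline only. It gave 16.8 and 6.11 at ZT2 and 22.4 and 10.2 at ZT14, and was lower with vancomycin by at least 1.27-fold at ZT2 and at least 1.84-fold at ZT14, counted against the lowest signal well above background on each vancomycin array. Ly86, which encodes the TLR-associated protein MD-1, differed by -0.65 and -0.47, and Marco, a scavenger receptor, by -0.02 and -0.49. The Marco value at ZT2 turned positive under other processing, such as quantile normalization (0.02) and normexp background correction (0.12). Cd14, the lipopolysaccharide co-receptor that tubule cells can also express, was the exception with 0.20 and 0.15, and its second probe gave 0.25 and 0.14. Msr1 and Timd4 were not well above background on any array.

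By their brightest probes, all 5 genes of lysosomal and antimicrobial proteins were lower with vancomycin at both times, without overlap between the groups. Of all genes, 28.1% were lower at both times and 12.9% had both vancomycin arrays below both saline arrays. Lyz2, the lysozyme gene of myeloid cells, gave 4492 and 2814 at ZT2 and 3048 and 2051 at ZT14. Lyz1, its neighbour on chromosome 10 and the lysozyme gene of Paneth cells, gave 838 and 475, then 575 and 363. The brightest probes of these similar genes matched at 22 of 60 bases at best without gaps, and the closest pair of probes in the whole set, those of Flt3 and Siglech, at 30. This sets probe against probe, not against the RNA of the other gene. Whether the Lyz1 probe also read Lyz2 RNA was not tested. The log2 differences were -0.82 and -0.67 for Lyz1 and -0.67 and -0.57 for Lyz2. Mpeg1, the pore-forming protein perforin-2 of macrophages, gave 563 and 307, then 606 and 343. Its log2 change over both times was -0.85 ± 0.14 (SE, n = 2 arrays per treatment; limma adjusted p = 0.52). Cd68, a lysosomal membrane glycoprotein, gave 411 and 296, then 481 and 346. A dimmer Cd68 probe, above background on 4 arrays, differed by -0.18 and -0.61. Another, above background on 1 array, was higher by 0.79 and 1.06, and the mean over the Cd68 probes was 0.045 at ZT2. Laptm5, another lysosomal membrane protein of leukocytes, differed by -0.98 and -0.50 in log2.

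**Figure D3:**
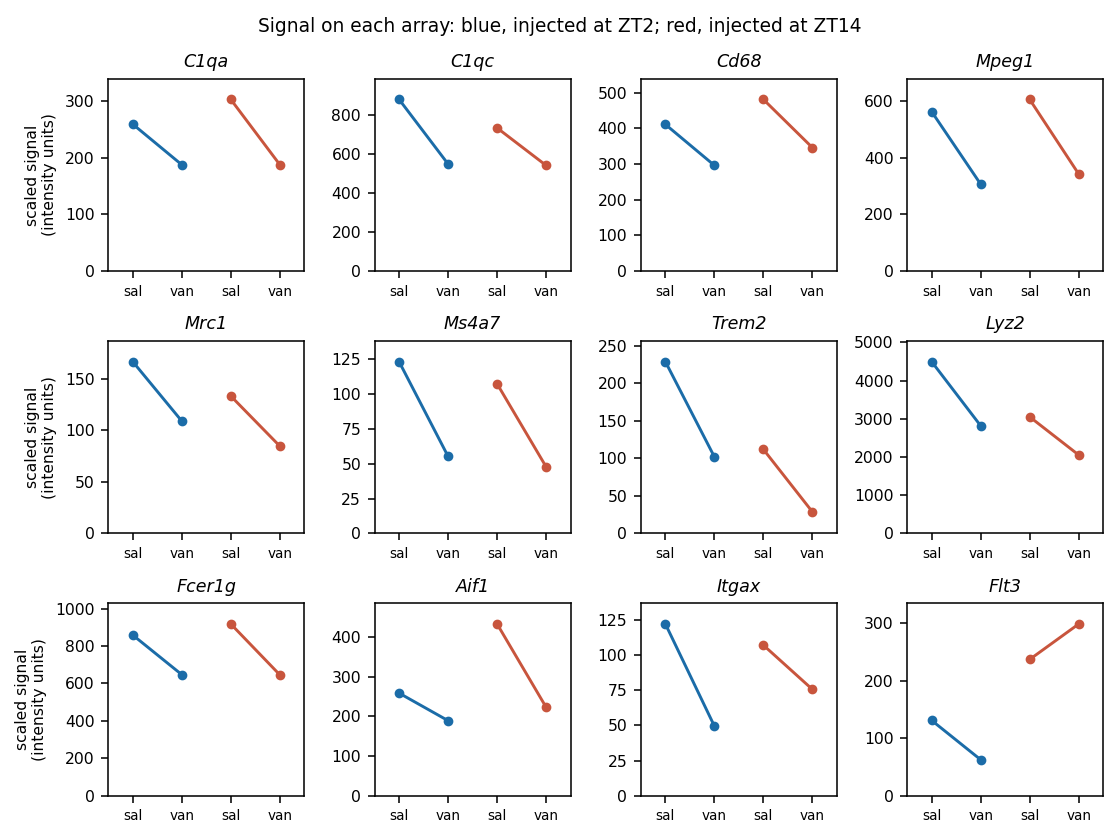
Scaled signal (intensity units, vertical, from 0) of 12 of the genes on each array, for saline (sal) and vancomycin (van) at ZT2 (blue) and ZT14 (red). Lines fall from saline to vancomycin in each pair except Flt3 at ZT14, where the signal was 237 in saline and 299 in vancomycin.

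Dendritic cell genes gave fewer readable signals. Itgax, which encodes CD11c, gave 122 and 49.5 at ZT2 and 107.2 and 75.7 at ZT14, without overlap. Flt3, the growth factor receptor of dendritic cell precursors, gave 131 and 62.4 at ZT2 and 237 and 299 at ZT14. That probe was designed on a cDNA clone, and the dimmer probe on the RefSeq transcript gave 31.4 and 14.3, then 33.4 and 18.7, which is lower at both times. Zbtb46, a transcription factor of conventional dendritic cells, differed by -0.19 and -0.31, but its sign at ZT2 depended on the probe. A dimmer Zbtb46 probe, above background on 3 arrays, gave 0.65 and -0.81. Another, above background on 1 array, gave 0.23 and -2.30. The mean over the Zbtb46 probes was 0.23 at ZT2. Xcr1, the receptor of cross-presenting dendritic cells, was not well above background on any array. Cd86 and Cd80 encode ligands of T cell costimulation. Cd86 differed by -0.31 and -0.77, and Cd80 by 0.49 and 0.16, both without overlap between the groups. The sign of Cd86 depended on the probe. A dimmer probe, above background on 3 arrays, gave 0.87 and 0.18, and the mean over the Cd86 probes was 0.37 at ZT2.

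S100a8 and S100a9 encode the calprotectin subunits of neutrophils and monocytes. S100a8 gave 49.9 and 25.1 at ZT2 and 29.7 and 18.4 at ZT14, which is lower at both times. S100a9 gave 199 and 103, then 119 and 118, so that the ZT14 arrays were alike. The neutrophil genes Ngp, Cxcr2 and Retnlg were not well above background on any array. Of 6 measured neutrophil markers of 9, 2 were lower at both times (28.1% of all genes), 1 higher and 3 changed sign.

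Among the remaining genes, Ms4a7, a membrane protein of macrophages, had the most even decline. It gave 123 and 55.2 at ZT2 and 107.3 and 47.8 at ZT14, or log2 differences of -1.16 and -1.17. A second Ms4a7 probe, above background on 3 arrays, gave -1.38 and -1.18. Aif1, which encodes the actin-binding protein IBA1, differed by -0.45 and -0.96 without overlap. Lst1, a leukocyte transcript, differed by -0.34 and -0.13 with overlapping groups. Ms4a6c, of the same membrane protein family as Ms4a7, was well above background on the ZT14 arrays only, with 25.8 in saline and 16.2 in vancomycin.

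Different probes of a gene in the same RNA show how far a single probe can be trusted. Of 15 genes with 2 or more kept probes, the probes had the same sign at both times in 5. Of the 8 whose probes were all above background on all 4 arrays, 3 did: Cd14, which was higher, and Irf8 and Mpeg1, which were lower. The median gap between probes of these 8 genes was 0.24 at ZT2 and 0.42 at ZT14 in log2, beside median changes of the 39 genes of -0.47 and -0.48. For Lyz2, the dimmer probe gave -1.04 at ZT2 and 0.26 at ZT14. With the next brightest probe in place of the brightest for these 15 genes, 25 of the 39 genes were lower at both times. The rest of the 39 had no second kept probe, so their values could not change. Among the 15 themselves, 9 were lower at both times by the brightest probe and 5 by the next (28.1% of all genes). Their medians were -0.23 (ZT2) and -0.34 (ZT14) by the brightest probe, and 0.08 and -0.28 by the next.

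**Figure D4:**
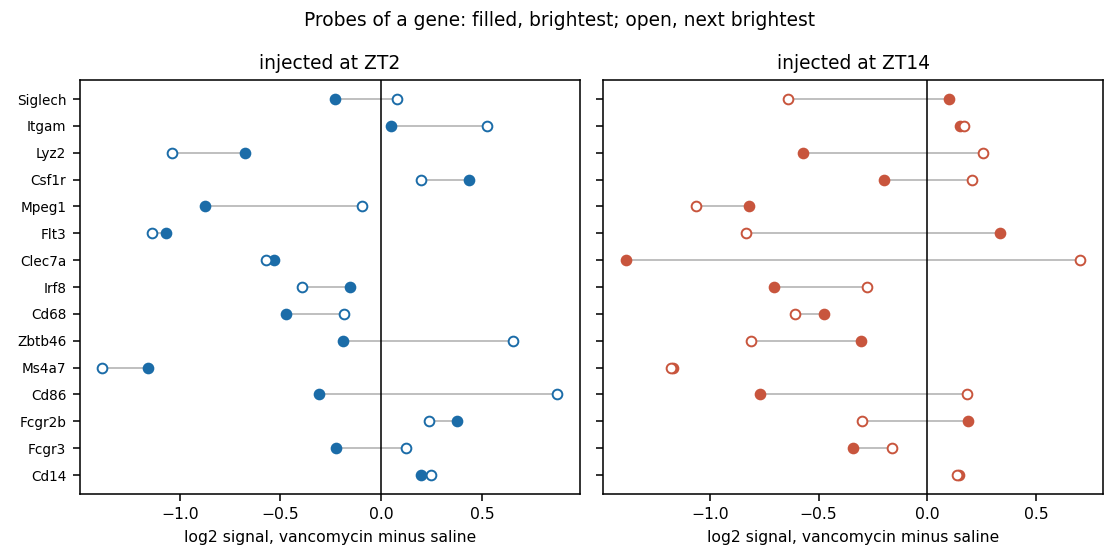
Log2 difference between vancomycin and saline (horizontal) for the brightest (filled) and next brightest (open) probe of the 15 genes with several kept probes, at ZT2 and ZT14. Ms4a7 and Cd14 agree closely, while Clec7a at ZT14 and Cd86 at both times lie on both sides of 0.

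For 19 of the 37 genes above background on all arrays, the differences at ZT2 and ZT14 lay within 0.25 of each other in log2, a share no higher than the 53% of all such genes. The median of the difference at ZT14 minus that at ZT2 was -0.02. It was 1 or more for Fcgr1 (1.71), Clec4n (1.49) and Flt3 (1.40), all more negative at ZT2. The Flt3 gap held for its brightest probe only. Its RefSeq probe, above background on all 4 arrays, differed by -1.14 at ZT2 and -0.83 at ZT14. No residual degrees of freedom were left to test these gaps. Between times, the repeat probe of Siglech was higher at ZT14 by 2.48 in saline and 2.81 in vancomycin, and Lst1 by 1.39 and 1.60, values that hold slide and time together. Signals were higher at ZT14 for 26 of the 39 genes in saline (54.1% of all genes) and 23 in vancomycin (53.4%). The median of ZT14 minus ZT2 was 0.11 and 0.06, beside 0.06 and 0.05 for all genes, and turned sign with centring on the median.

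Other genes of myeloid cells, 68 in number, were listed by role. Of 65 measured, 39 were lower at both times and 5 higher, with medians of -0.53 and -0.30, where 28.1% of all genes were lower at both times. Over the 55 above background on all 4 arrays, 30 were lower at both times (27.3% of all such genes), with smaller medians of -0.35 and -0.27. By group, 5 of 6 phagocyte oxidase genes, 6 of 7 integrin and cytoskeleton genes and 6 of 8 signalling genes were lower at both times, against 2 of 8 transcription factor genes and 3 of 8 pattern recognition genes, shares near that of all genes. The dendritic cell lectin gene Clec10a differed by -2.74 and -1.68 and the metal transporter gene of phagosomes, Slc11a1, by -1.05 and -1.02. The fractalkine receptor gene Cx3cr1 differed by -0.99 and -0.96, and Cybb, the catalytic subunit of the phagocyte oxidase, by -1.08 and -0.80. Of the 6 genes listed for monocytes, which include Cx3cr1, 3 were lower at both times, 2 higher and 1 changed sign. The 2 higher ones were Ly6c1 (0.21 and 0.16) and Ly6c2 (0.21 and 0.14). Their signals in saline at ZT2 were 49914 and 55050, against 415 for Cx3cr1 and 71.9 for Ccr2. Whether monocytes gave the Ly6c1 and Ly6c2 signals was not tested. Where an array was not well above background, the values are bounds. They are counted against the measured signal or the array's lowest signal well above background, whichever was higher. For Ccr2 at ZT2 this was the measured signal, so its bound is the measured ratio. Irf4, a transcription factor of dendritic cells, was lower by at least 5.27-fold and 2.12-fold, the monocyte chemokine receptor gene Ccr2 by at least 5.07-fold at ZT2, with a difference of -1.04 in log2 at ZT14. Cd5l, a secreted macrophage protein, was lower by at least 1.05-fold at ZT2, with a difference of -1.89 in log2 at ZT14, and Gpnmb, a glycoprotein of macrophages, by at least 2.08-fold at ZT2.

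Markers of other cells moved as well, and their part in the myeloid values was not tested. Lower signals with vancomycin at each time were found for all 10 T and NK cell markers and all 10 endothelial markers. Of all genes, 28.1% were lower at both times. The T and NK markers Cd8a and Klrb1c were kept only through their saline arrays. Above background on all 4 arrays were 7 T and NK markers and the 10 endothelial ones, all lower at both times (27.3% of such genes). Summed scaled signals of the T and NK list were 1512 and 3409 in saline and 1132 and 2846 in vancomycin (ZT2, then ZT14). Those of the endothelial list were 17177 and 22888 against 13524 and 17486. Of 6 measured B and plasma cell markers 5 were lower at both times, with sums of 11048 and 6427 in saline and 1444 and 2822 in vancomycin, and Cd79a was not well above background. The plasma cell gene Jchain made up most of these sums, with 10546 and 6070.1 in saline and 1175 and 2571 in vancomycin. Ms4a1, above background on 1 array, was the gene that was higher. The 4 B and plasma cell markers above background on all 4 arrays were lower at both times. The 9 stromal and smooth muscle markers had medians of -1.35 (ZT2) and -0.26 (ZT14), with sums of 62509 and 37508 against 24345 and 31209. Of 8 measured adrenal markers 7 were higher at both times (28.8% of all genes), and Cyp11b2 and Mc2r were not well above background. Of the 4 adrenal markers above background on all 4 arrays, 3 were higher at both times (6210 of 20759 such genes). Sums of the adrenal list were 373 and 413 in saline and 3775 and 760 in vancomycin. Kidney epithelial markers differed by a median of 0.15 and 0.20.

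**Figure D5:**
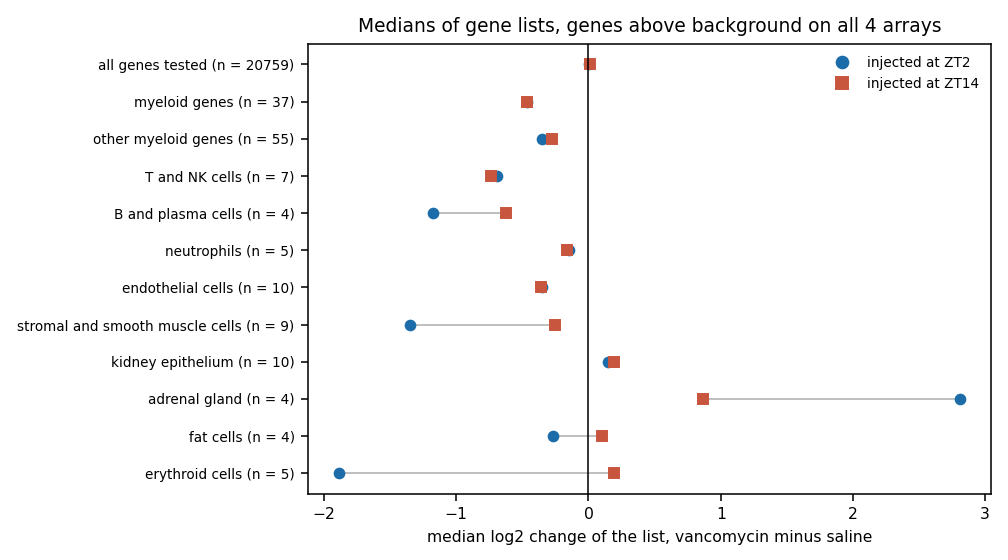
Median log2 difference between vancomycin and saline (horizontal) for gene lists of cell types, over the genes above background on all 4 arrays (n beside each name), at ZT2 (circles) and ZT14 (squares). The myeloid genes stand at -0.47 at both times, left of 0 like the T and NK and endothelial lists, while kidney epithelium stands at 0.15 and 0.20.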

How the data were processed

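Total RNA of kidney was labelled with Cy3 and hybridized to 1 array per sample. The file headers name Feature Extraction 10.7.1.1 (Agilent) as the reading software, and the submitters' processing notes name 9.5.1.1. The deposited processed intensity of each spot is background-subtracted and detrended within the array, per the file headers, and is not normalized between arrays. The deposited flags for spots, coded 0 or 1 and neither a signal nor a score, mark those well above background, saturated or outlying. A second deposited table holds intensity values with the same quartiles in all 4 columns and served as an alternative.

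Here each array's 75th percentile was subtracted from its log2 intensities, outlier spots left out and replicate spots averaged. Probes with 50% or more of their spots well above background on 1 or more arrays were kept (37503 of 56605), and the brightest represented a gene. limma 3.58.1 (R 4.3.3) fitted treatment and injection time, with 1 residual degree of freedom and Benjamini-Hochberg adjustment, after it was tested on simulated data. Precision is limited by the number of arrays. Probes of 10 spots had a median SD of 0.043 to 0.051 (log2) within an array. The genes and lists were chosen with earlier results of these data known. All 43 genes are named. Signals of each array are given for genes that differed by 0.5 or more the same way at both times or by 2-fold at 1 time, and for Adgre1, Cd68, Csf1r and the C1q genes. Other myeloid genes changed 1 way at both times were ranked by the lesser of their 2 changes, and the first 8 are named. Il34, Csf1 and Flt3l were added as ligands after their values were seen. Ly6c1 and Ly6c2 were also added after theirs were seen, as the genes of the monocyte list that were higher at both times. Markers of other cells were kidney epithelium, T and NK cells, B and plasma cells, neutrophils, endothelium, stroma and smooth muscle, adrenal gland, fat and erythroid cells.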

Additional observations from a re-analysis of the deposited data

How the results depend on the processing

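Alternatives were normexp background correction, quantile normalization, centring on the median, the authors' value table, 2 other filters on dim probes, the mean over probes, dim signals at their bound and a pseudocount of 16. The number of genes lower at both times ranged from 25 to 30 over them, out of 37 to 43 genes depending on the filter. Of all genes, 20.8% to 27.6% were lower at both times in these alternatives. In every alternative fit limma called 0 genes. The fits also included a fit without injection time and a fit with an intensity trend and robust prior. With normexp, which adds 50 to each signal, the medians were -0.29 at ZT2 and -0.24 at ZT14 (0.046 and 0.03 for all genes). At either time 0 genes were 2-fold lower (1.36% of all genes at ZT2 and 1.05% at ZT14). The median of ZT14 minus ZT2 was then 0.0204 in saline and -0.012 in vancomycin. With the mean over probes the medians were -0.34 and -0.35. With the pseudocount, 3 genes at ZT2 (2.37% of all genes) and 2 at ZT14 (1.97%) were 2-fold lower. The median of ZT14 minus ZT2 in vancomycin was then -0.011. That last median was -0.0598 with centring on the median (-0.00091 in saline), -0.0094 with quantile normalization and -0.0095 with the authors' table. After the data were seen, leaving out the Itgam and Siglech repeat probes gave 29 of 37 lower at both times. Of 78 gene changes (39 genes at 2 times), 10 turned sign in 1 or more alternatives, and 0 of those of 2-fold or more did. No replicate could be left out. No paired analysis was possible because each group had 1 array and the labels give no replicate numbers to use as a block. The limma fit does compare saline with vancomycin within each injection time, and so within a slide. Signal over background limits Spi1, Msr1, Timd4, Xcr1, Cd163 and Ms4a6c.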

Other observations

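The 5 measured erythroid markers stood at a median of -1.88 after injection at ZT2 and 0.19 at ZT14, but did not move together, since 3 were lower and 2 higher at ZT2. Of 8 measured fat cell markers 5 were lower and 3 higher at ZT2, and the 4 above background on all 4 arrays had medians of -0.27 and 0.11. Gaps between the times were not tested.

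For the 42 kept probes with a CA repeat of at least 16 bases, the type of the Itgam probe, the median of ZT14 minus ZT2 in saline was -0.27. For the 5 with a GAAA repeat on the probe strand, the type of the Siglech probe, it was 1.63, and for all 252 kept probes with a tandem repeat of that length 0.24, against 0.03 for all 37503 kept probes. The Itgam and Siglech probes are themselves in these sets, so the sets are not independent of them. Slide and time cannot be told apart in these values.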
